A study of Gorilla gorilla with 12 samples.

Results

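Proteoglycans of the extracellular matrix were followed across cultured fibroblast lines of gorillas (Gorilla gorilla). The members were 6 genes: the small leucine-rich proteoglycans biglycan (BGN), decorin (DCN), lumican (LUM), fibromodulin (FMOD) and prolargin (PRELP), and the large proteoglycan versican (VCAN). Every probe set whose annotation gave a single symbol, and that symbol one of these, was taken. The rule found 7 of the 12625 probe sets on the array, for 5 of the 6 genes. BGN, LUM, FMOD and PRELP had 1 probe set each and VCAN had 3. No probe set carried the symbol DCN alone in the annotation used, so decorin is not analysed here.

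RNA of 12 cultures was hybridised to 12 expression arrays, 1 for each. A culture of male line 2, from a donor of 26 years, was harvested at 50% confluence. The other 11 arrays held lines harvested under the standard conditions of the study, 5 from males of 19, 26, 24, 18 and 3 years (males 1 to 5) and 6 from females of 19, 19, 35, 26, 30 and 2 years (females 1 to 6). All donors were described as normal, no line carried a stated treatment or genetic change, and the sources used here give neither the confluence and passage of the standard cultures nor the body site of the biopsies. Each line came from another animal and had 1 standard array, so the p-values measure the spread between lines. In that spread, differences between animals, cultures and arrays cannot be told apart. With 1 array per line the order of neighbouring lines on any probe set has no replicate error of its own.

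Small leucine-rich proteoglycans are secreted proteins built of leucine-rich repeats that bind collagen fibrils and set their thickness and spacing. Biglycan and decorin carry chondroitin or dermatan sulfate chains and also bind growth factors of the TGF-beta family, while lumican and fibromodulin carry keratan sulfate and share a site on collagen. Prolargin binds collagen and the heparan sulfate chain of perlecan. Versican is a large chondroitin sulfate proteoglycan that binds hyaluronan through its N-terminal domain and forms a hydrated coat around fibroblasts. In the gorilla assembly NHGRI_mGorGor1-v2.1, as annotated by RefSeq, the genes FMOD and PRELP lay next to each other, LUM lay beside DCN, and VCAN lay beside HAPLN1, which codes for a link protein of hyaluronan and proteoglycans.

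The deposited values were intensities on a linear scale, with a lowest value of 100 on all 12 arrays and a highest of 43135. The share of probe sets at 100 was 40.1% to 49.2% per array, and it was highest in the culture at 50% confluence and lowest in the standard culture of the same line. The ratios of 3' to 5' control probe sets lay between 0.821 and 1.34 for GAPDH and between 0.672 and 1.19 for ACTB. All 13 fibroblast markers stood above the lowest value on every array. Of the other lists, 4 of 10 epithelial markers (KRT5, KRT14, KRT19 and DSP) stood at 100 on all arrays and 2 above it on all, with summed intensities of 3333 to 6049 over the standard arrays where 1000 would be all at the lowest value. Of 10 leukocyte markers 5, among them PTPRC and CD3D, stood at 100 throughout and 2 above it throughout, with sums of 1391 to 3306. Of 8 endothelial markers VWF and CLDN5 stood at 100 throughout and 1 above it throughout, with sums of 862 to 1082. Of 7 adipocyte markers ADIPOQ, FABP4 and LEP stood at 100 throughout, with sums of 720 to 1006. Of 5 melanocyte markers TYRP1 stood at 100 throughout and 1 above it throughout, with sums of 592 to 1390. Of 9 cartilage markers MATN3 and COL9A3 stood at 100 throughout and 2 above it throughout, with sums of 1608 to 4295. Of 7 muscle markers 0 stood at 100 throughout and 2 above it throughout, with sums of 2186 to 20928. For these 3 lists, sums of 500, 900 and 700 would be all at the lowest value. In 1 line the Y-linked gene RPS4Y1 went against the label. It had an intensity of 2595 in the line labelled female 3, against 2662 to 4363 in the 5 males and 100 to 115 in the other 5 females. Values without this line are given beside the results of the members and list genes that it moves most. The probes were designed for human transcripts, so levels are compared between cultures within a probe set and never between genes.

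BGN, LUM, PRELP and VCAN stood above the lowest value in every culture, and FMOD did so in 7 of the 11 standard lines. BGN, FMOD and the VCAN probe set 38111_at spread more widely over the 11 standard arrays than 95% of the 7535 probe sets tested. No line was high or low on all of them: male 2 was the highest line on 4 of the 7 probe sets, and male 1 was the highest for BGN and the lowest for LUM and PRELP. The median SD over lines, on the log2 scale of quantile-normalized values, was 0.80 over the 5 genes, each represented by its probe set of highest mean, against 0.40 over all 5482 tested genes. Over all 7 member probe sets the median SD was 0.65.

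**Figure D1:**
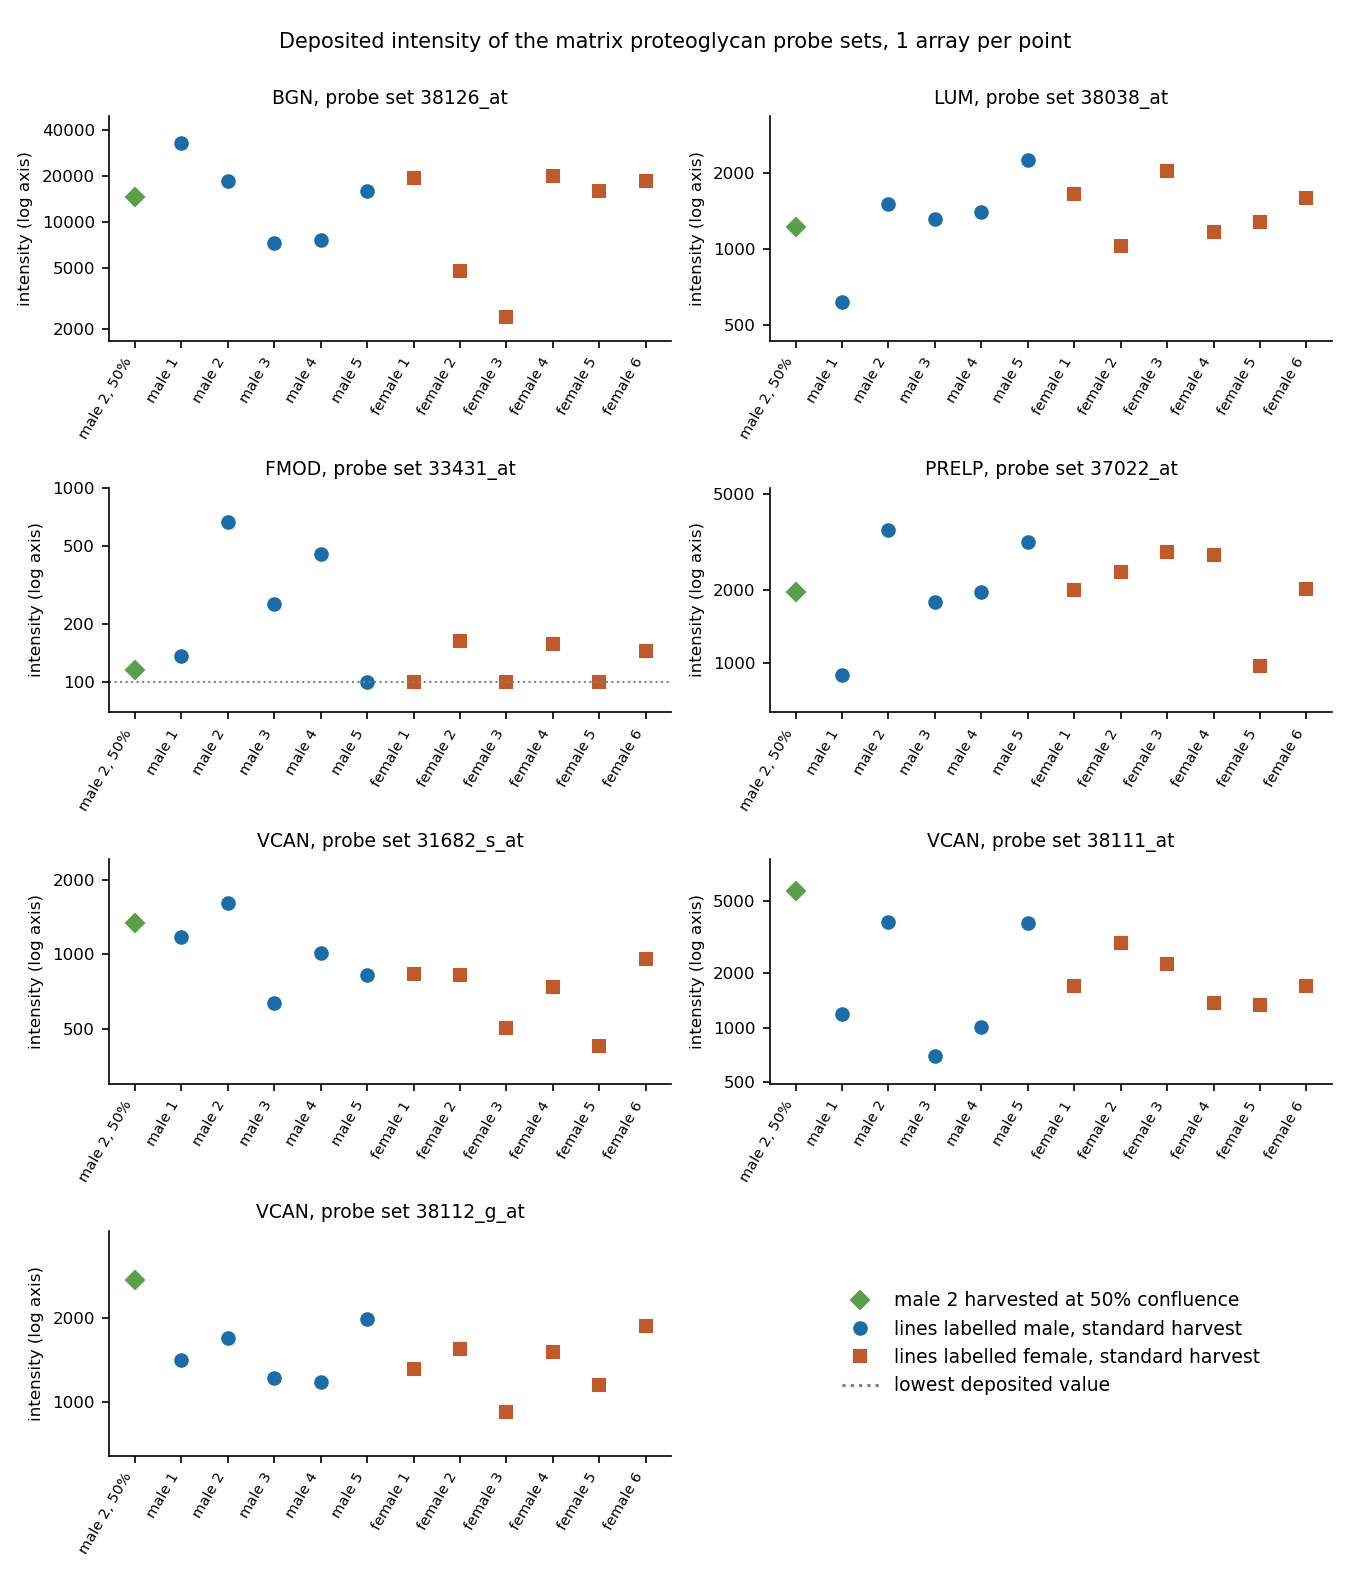
Deposited intensity (log axis) of the 7 probe sets in each culture, with the culture of male 2 at 50% confluence on the left, then the 5 male and the 6 female lines. BGN ran from 2408 in the line labelled female 3 to 33087 in male 1, FMOD stood at the lowest value of 100 in 4 lines, and both VCAN probe sets 38111_at and 38112_g_at were higher in the culture at 50% confluence than in all 11 standard cultures.

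Biglycan (probe set 38126_at), whose gene is X-linked, had the widest spread. Its intensities were 33087, 18618, 7340, 7617 and 16085 in males 1 to 5. In the 6 females the lowest was 2408, the median 17291 and the highest 20013. The low end was held by the lines labelled female 3, at 2408, and female 2, at 4778, while the other 4 females lay between 16009 and 20013. The highest line was 13.7-fold above the lowest, and the SD of the log2 values was 1.04, wider than for 98.7% of the tested probe sets. Without the line labelled female 3 that SD was 0.75.

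Fibromodulin (33431_at) had intensities of 137, 667, 251, 458 and 100 in males 1 to 5. Its 6 females ran from 100 through a median of 122 to 163. Males 2, 4 and 3 formed the high end, and 4 lines stood at the lowest value, which is only an upper limit for them. The SD was 0.95, wider than for 97.8% of the tested probe sets, and the highest line was at least 6.67-fold above those at the lowest value. With intensities floored at 200 the SD was 0.60.

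Prolargin (37022_at) had intensities of 894, 3541, 1791, 1959 and 3154 in males 1 to 5. The females ran from 972 through a median of 2197 to 2884. Male 1 and female 5 stood low, with the next line at 1791, and males 2 and 5 stood highest. The range was 3.96-fold and the SD 0.65.

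Lumican (38038_at) spread less. Its intensities were 619, 1514, 1321, 1402 and 2245 in males 1 to 5. The females ran from 1029 through a median of 1436 to 2041. Male 1 was the lowest line and male 5 the highest, a range of 3.63-fold with an SD of 0.51, and the line labelled female 3, the lowest for BGN, was the second highest here.

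Versican was read by 3 probe sets, which ordered the lines differently. Probe set 38111_at, the one with the highest mean, gave 1194, 3819, 698, 1009 and 3786 in males 1 to 5 and 1327 to 2927 in females, with a female median of 1700. On it males 2 and 5 lay above all females and the other 3 males lay below all females. Probe set 38112_g_at gave 1411, 1698, 1218, 1181 and 1978 in males 1 to 5 and 922 to 1863 in females, a range of 2.15-fold only. Probe set 31682_s_at gave 1179, 1616, 639, 1018 and 830 in the males and 429 to 955 in the females. The annotation used here does not state which versican transcripts each probe set detects. Between the probe sets, Pearson's r over the 11 lines was 0.53 for 38111_at and 38112_g_at, 0.58 for 31682_s_at and 38112_g_at, and 0.31 for 31682_s_at and 38111_at. The permutation p-values adjusted over the 3 pairs were 0.136 for each of the first pairs and 0.35 for the last, so none passed. Spearman's rho was 0.58, 0.50 and 0.17 in the same order, with adjusted permutation p of 0.182, 0.182 and 0.614. Without the line labelled female 3, r of 38111_at and 38112_g_at was 0.78 (adjusted permutation p = 0.0283).

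Male and female lines were set against each other to ask whether the proteoglycans follow the sex of the donor. None of the 7 probe sets passed the threshold of 0.05 on the adjusted p of limma, and neither did any of the 7535 tested, so that the background was 0.0%. At an unadjusted p under 0.05 there was 1 of 7, FMOD, against 396 of all tested, a background of 5.26%. The median male minus female difference was 0.11 on the log2 scale over the 7 probe sets and -0.009 over all tested. The line labelled female 3 counts as female in these values.

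FMOD had the largest difference. Its mean log2 value was 8.02 ± 1.14 in males (SD, n = 5) and 6.95 ± 0.36 in females (SD, n = 6), a difference of 1.06 with a standard error of 0.41 and a 95% interval from 0.19 to 1.93. The adjusted p of limma was 0.89, and the exact permutation test over the 462 splits of the arrays, two-sided, gave 0.0584 before adjustment, where the smallest p it allows is 0.00216. Males 2, 3 and 4 lay above all 6 females, while male 1, at 137, and male 5, at 100, lay within their range. The difference was 1.0 without the line labelled female 3, 0.72 without male 2, 1.41 without male 5, 0.60 with the array at 50% confluence in place of the standard one and 0.67 with intensities floored at 200.

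VCAN 31682_s_at was the next, with a mean log2 value of 9.97 ± 0.53 in males (SD, n = 5) and 9.43 ± 0.47 in females (SD, n = 6). The difference was 0.54, with a standard error of 0.28, an interval from -0.05 to 1.13, an adjusted p of 0.89 from limma and an exact permutation p of 0.104. The other probe sets of VCAN gave -0.15 (95% interval -1.06 to 0.75) for 38111_at and 0.11 (95% interval -0.38 to 0.59) for 38112_g_at. BGN differed by 0.29, with an interval from -0.85 to 1.42, and by -0.14 without the line labelled female 3. LUM differed by -0.11, with an interval from -0.74 to 0.52, and PRELP by 0.02, with an interval from -0.74 to 0.78.

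Donor age was fitted as a slope per 10 years with sex as a covariate, over ages from 2 to 35 years. No member probe set passed the threshold and none of the 7535 tested did, a background of 0.0%. At an unadjusted p under 0.05 there was 1 of 7, VCAN 38112_g_at, against 410 of all tested, a background of 5.44%. Its slope was -0.27 log2 per 10 years, with a standard error of 0.10, a 95% interval from -0.48 to -0.06 and an adjusted p of 0.85 from limma. The 9 adult lines had intensities of 922 to 1698, below the 1978 of male 5 and the 1863 of female 6, whose donors were 3 and 2 years old. Within the 9 adults the slope was -0.23 with a standard error of 0.22.

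The other VCAN probe sets had slopes of -0.19 (95% interval -0.67 to 0.29) for 38111_at and -0.16 (95% interval -0.47 to 0.14) for 31682_s_at. On both probe sets the range of the adults took in both young donors. BGN had a slope of -0.39, with an interval from -0.97 to 0.18, and of -0.07 without the line labelled female 3, the oldest donor. FMOD had a slope of 0.25 (interval -0.21 to 0.70), LUM of -0.11 (interval -0.44 to 0.23) and PRELP of -0.09 (interval -0.50 to 0.32). The median slope was -0.16 over the 7 probe sets and -0.002 over all tested. Male and female slopes of FMOD differed by 1.06 with a standard error of 0.36, an adjusted p of 0.999 from limma. For this difference of slopes, FMOD was the 1 of 7 with an unadjusted p of limma under 0.05, against a background of 3.74%. FMOD stood at the lowest value of 100 in 4 lines, among them male 5, the youngest male.

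The culture of male 2 at 50% confluence was set against the standard culture of the same line. Each condition had 1 array, so the differences have no replicate check and no test. FMOD and PRELP were lower and 2 of the 3 VCAN probe sets were higher at 50% confluence under each of 3 scalings, while BGN was higher after quantile normalization and lower on the deposited values. LUM and VCAN 31682_s_at were lower after quantile normalization and on the deposited values, and above 0 only under median scaling, which raised all probe sets alike. In such bulk cultures, fewer cells of a type and less RNA per cell cannot be told apart.

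FMOD had an intensity of 115 at 50% confluence, against 667 in the standard culture. It was 4.93-fold lower after quantile normalization, a log2 difference of -2.30, and only 0.292% of the tested probe sets had a difference this low or lower. The standard culture of male 2 was the highest of the 11 lines for FMOD, and the culture at 50% confluence lay inside the range of the other lines. PRELP had 1975 at 50% confluence, against 3541 in the standard culture, 1.93-fold lower (log2 -0.95). That standard culture too was the highest of the 11 lines.

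VCAN 38111_at had 5698 at 50% confluence, against 3819 in the standard culture, a log2 difference of 0.49. VCAN 38112_g_at had 2716 at 50% confluence, against 1698 in the standard culture, a log2 difference of 0.60. Both lay above the range of all 11 standard cultures. VCAN 31682_s_at had 1336 at 50% confluence, against 1616 in the standard culture, a log2 difference of -0.36.

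BGN had 14632 at 50% confluence, against 18618 in the standard culture, and its log2 difference was 0.50 after quantile normalization but -0.35 on the deposited values. The highest intensity of any probe set was 18027 on the array at 50% confluence and 43135 on the standard array. LUM had 1228 at 50% confluence, against 1514 in the standard culture, a log2 difference of -0.38.

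Of the 7 probe sets, 1 was lower by 2-fold or more, against a background of 7.25%, and 0 were higher by 2-fold or more, against 6.97%. Above the range of the standard arrays lay 2 of 7, against 6.6%, and below it 0 of 7, against 4.76%. Those above were both probe sets of VCAN. Counted by gene, 1 of 5 lay above, against 387 of all 5482 tested genes. Scaling of the arrays by their medians moved the median difference of all tested probe sets to 0.44 and counted 1303 higher and 231 lower by 2-fold or more, where quantile normalization counted 525 and 546 and the deposited values 375 and 850. The array medians were 105 at 50% confluence and 148 in the standard culture, near the lowest value of 100. Relative to the median of all tested probe sets under each scaling, FMOD differed by -2.30 to -2.48, PRELP by -0.79 to -0.95, VCAN 38111_at by 0.49 to 0.63, VCAN 38112_g_at by 0.60 to 0.73, LUM by -0.25 to -0.38, VCAN 31682_s_at by -0.22 to -0.36 and BGN by -0.29 to 0.50. In these relative values, median scaling equals the deposited scale by construction.

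Cell cycle genes differed between the cultures as well: 33 of 34 tested genes of that list were higher in the culture at 50% confluence, 19 passed 2-fold, and the median log2 difference was 1.16. Of 13 contractile genes 10 were lower, with a median of -0.52 (7 lower under median scaling, with a median of 0). Of the 13 fibroblast markers 6 were lower and 7 higher, with a median of 0.03 after quantile normalization and -0.39 as deposited. The part of these differences in the proteoglycan values was not tested.

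**Figure D2:**
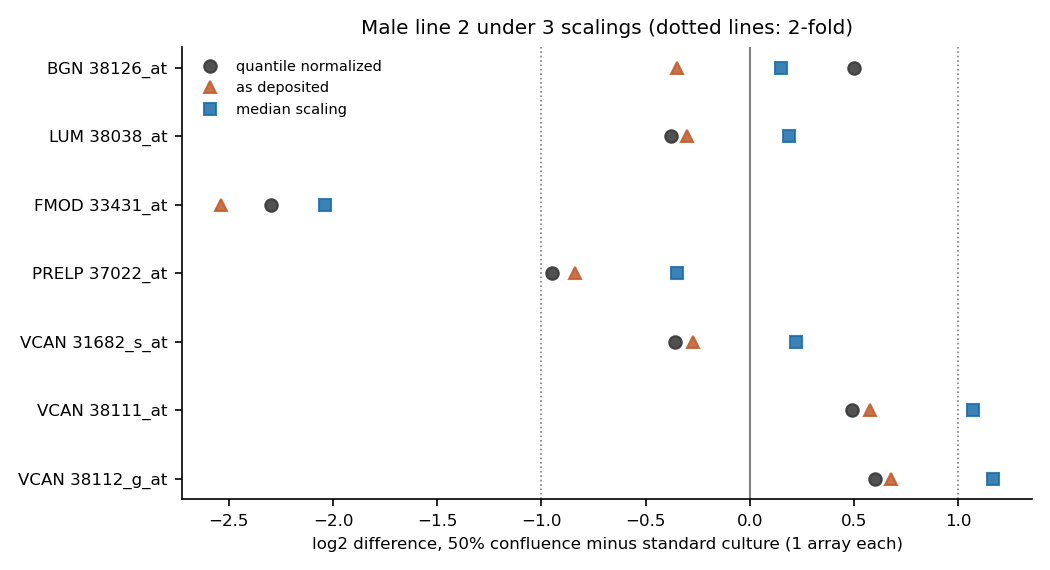
Log2 difference of each member probe set, 50% confluence minus standard culture of male 2, under quantile normalization, as deposited and with median scaling. FMOD lies between -2.54 and -2.04 under all 3, VCAN 38111_at and 38112_g_at lie above 0 under all 3, and BGN lies at 0.50, -0.35 and 0.15.

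Whether the members vary together between lines was asked for the 10 pairs of the 5 genes. No pair passed on Pearson's r, where the smallest adjusted permutation p was 0.136. PRELP and VCAN had r = 0.66 (permutation p = 0.0265, adjusted 0.136) and a Spearman rho of 0.82 (permutation p = 0.00353, adjusted 0.0353) over the 11 lines. Without the lines farthest from the PRELP median, female 5 and male 1, r was 0.84. Without the line labelled female 3 rho was 0.78 with an adjusted permutation p of 0.0991. These values are of VCAN 38111_at. With PRELP, 38112_g_at had r = 0.37 and rho = 0.46, and 31682_s_at had r = 0.30 and rho = 0.11. For the mean of the VCAN probe sets rho was 0.58 (adjusted permutation p = 0.369).

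LUM and PRELP also had r = 0.66 (permutation p = 0.0272, adjusted 0.136), with a rho of 0.51 (permutation p = 0.112, adjusted 0.295). Without male 1, the lowest line for both genes, r was 0.40, and without male 5 it was 0.61. Without both lines r was 0.25. FMOD and PRELP, the neighbours in the genome, had r = 0.29 and rho = 0.13, with adjusted permutation p of 0.703 and 0.713. BGN had values of r between -0.34 and -0.06 with the other 4 genes. Without the lowest line for BGN, r was -0.01 with LUM, -0.39 with FMOD, -0.25 with PRELP and 0.07 with VCAN. With the mean of the VCAN probe sets over all standard lines, r of BGN and VCAN was 0.24.

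**Figure D3:**
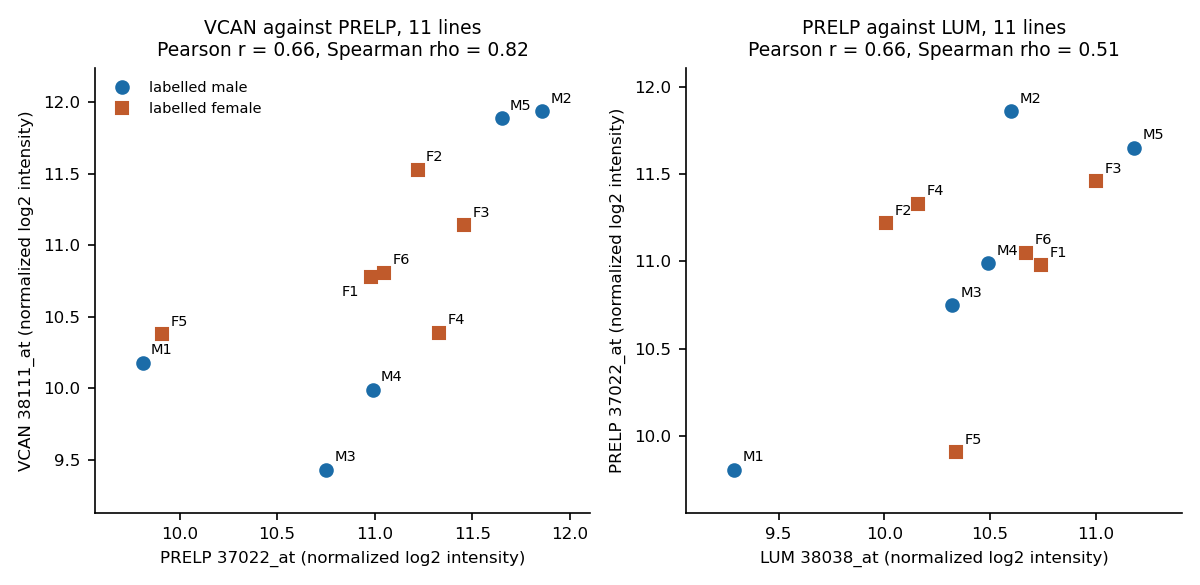
Quantile-normalized log2 values of pairs of members in the 11 standard lines, with 1 point per line labelled by sex and number. PRELP and VCAN 38111_at had r = 0.66 (adjusted permutation p = 0.136), and LUM and PRELP had r = 0.66, which was 0.25 without male 1 and male 5, the lowest and highest lines of LUM.

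Each gene was also set against 5 measures of the lines, the mean of the cell cycle list, the mean of the contractile list, the share of probe sets at the lowest value, and the 3' to 5' ratios of GAPDH and ACTB. None of the 25 relations passed, with a smallest adjusted permutation p of 0.443 on Pearson's r. VCAN 38111_at and the contractile mean had r = 0.68 (permutation p = 0.0227, adjusted 0.443) and a rho of 0.70 (permutation p = 0.0201, adjusted 0.502), and r was 0.73 without female 6 and male 3. PRELP and the cell cycle mean had r = -0.63 (permutation p = 0.0355, adjusted 0.443) and a rho of -0.58 (permutation p = 0.0644, adjusted 0.509), and r was -0.60 without female 3 and female 4.

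The genes with the most similar pattern over the 11 lines were sought among the tested genes above the lowest value on all standard arrays, 3536 for each member and 3537 for FMOD. They are given as a description, with Pearson's r of quantile-normalized log2 values and no test. BGN was closest to PCBP2, an RNA-binding protein, with r = 0.951, and to RHOG, a small GTPase, with r = 0.938, and both had their lowest value in the line labelled female 3. Without that line r was 0.896 for PCBP2 and 0.905 for RHOG. LUM was closest to TMEM59 (r = 0.924) and to SEMA3C, a secreted semaphorin (r = 0.907), both lowest in male 1. FMOD was closest to the kinase gene CDK10 (r = 0.951), highest in male 2. PRELP was closest to ADAM15, a membrane metalloproteinase (r = 0.885), and to the kinesin KIF1C (r = 0.88), both lowest in male 1 and highest in male 2. VCAN 38111_at was closest to fibronectin, FN1 (r = 0.859), which ran from 13253 in male 3 to 32691 in male 2. Between the cultures of male 2, FN1 differed by -0.33 on that probe set after quantile normalization (50% confluence minus standard, log2), and VCAN 38111_at by 0.49.

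The other genes of proteoglycan biology were read from 7 lists with 156 genes, of which 108 had a probe set and 81 were tested. None passed the adjusted threshold of limma for sex or for age, and 4 and 3 had an unadjusted p under 0.05, 4.94% and 3.7% of the 81, against 5.22% and 5.34% of all tested genes. At 50% confluence 31 of the 81 were higher and 47 lower, where 5 and 10 passed 2-fold, 6.17% and 12.3% of the 81, against 7.21% and 6.6% of all tested genes. The median log2 difference was -0.07, against 2729 higher and 2464 lower of all 5482 tested genes with a median of 0. Median scaling raised the median of all tested genes to 0.47, so list medians are also given relative to all tested genes. Their order is quantile-normalized, deposited and median-scaled. The deposited and median-scaled relative values are equal by construction, because median scaling shifts all values of an array alike.

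Of the small leucine-rich proteoglycans outside the members only ECM2 was tested. It had 938 at 50% confluence, against 1440 in the standard culture, a log2 difference of -0.70, and -1.34 on its second probe set. Among the 4 large and basement membrane proteoglycans tested, ACAN, the aggrecan of cartilage, spread most. Its intensities on probe set 39206_s_at were 100, 1424, 100, 228 and 1608 in males 1 to 5, and ran from 100 to 1787 in females. It was high in males 2 and 5 and low in male 1 and male 3, and it had 331 at 50% confluence, against 1424 in the standard culture, 4.15-fold lower. Its other 2 probe sets differed by -1.69 and -2.58 on the log2 scale. VCAN 38111_at, of the same family, was also high in males 2 and 5, but in female 4, the highest line for ACAN, it had 1375, below its median of 1694. AGRN, the agrin of basement membranes, had 598 at 50% confluence, against 462 in the standard culture.

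Of the 12 cell surface proteoglycan genes tested 4 were higher and 7 lower at 50% confluence (9 and 3 under median scaling), with relative medians of -0.12, -0.28 and -0.28. The 3 lower by 2-fold or more were the glypican GPC3, with 288 at 50% confluence against 855 in the standard culture, CSPG4 (NG2), with 371 at 50% confluence against 1090 in the standard culture, and the co-receptor NRP1, with 100 at 50% confluence against 227 in the standard culture, named after its values were seen. The second probe set of CSPG4 gave a log2 difference of 0.64, in the other direction. SDC3, a syndecan, had a male minus female difference of -0.46 with a standard error of 0.19 (adjusted p = 0.89, limma), and of -0.38 without the line labelled female 3, its highest line.

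Hyaluronan, the ligand of versican, is made by hyaluronan synthases at the cell surface. HAS2 had 289 at 50% confluence, against the lowest value of 100 in the standard culture, so it was at least 2.89-fold higher on the deposited scale. After quantile normalization it lay above the range of the 11 standard lines, while on the deposited scale male 4, at 325, was higher. CEMIP, which takes part in hyaluronan breakdown, had 2410 at 50% confluence, against 10081 in the standard culture, 4.33-fold lower, and that standard culture was the highest of the 11 lines. TNFAIP6, which transfers heavy chains onto hyaluronan, had 185 at 50% confluence against 437 in the standard culture and, across standard lines, ran from 143 to 2418 in the line labelled female 3. ITIH1, a source of such heavy chains, had 100 at 50% confluence against 321 in the standard culture, and was named after its values were seen. Of the 8 genes tested 3 were higher and 5 lower at 50% confluence (4 and 4 under median scaling), with relative medians of -0.38, -0.53 and -0.53.

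The 19 tested genes of the linkage region and of chondroitin, dermatan and keratan sulfate synthesis, enzymes and transporters, had few differences. At 50% confluence 10 were higher and 8 lower (15 and 4 under median scaling), 0 passed 2-fold, and the relative medians were 0.01, -0.02 and -0.02. The sulfotransferase CHST15 had 100 in both cultures of male 2. Across lines it ran from 100 to 486, with a male minus female difference of -0.86 and a standard error of 0.30 (adjusted p = 0.89, limma), and of -0.60 without the line labelled female 3, its highest line. CHST2 ran from 168 to 614, with a difference of -0.72 and a standard error of 0.30 (adjusted p = 0.89, limma).

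Of the 14 tested proteases, inhibitors and lysosomal enzymes 13 were lower at 50% confluence and 1 higher, with a median log2 difference of -0.44 after quantile normalization and -0.41 as deposited. Under median scaling 6 were lower and 8 higher, and the relative medians were -0.44, -0.38 and -0.38. The 3 lower by 2-fold or more were SGSH, a heparan sulfatase of the lysosome, with 100 at 50% confluence against 349 in the standard culture, ARSB, which removes sulfate from dermatan and chondroitin chains, with 100 at 50% confluence against 332 in the standard culture, and the membrane protease MMP14, with 1350 at 50% confluence against 4927 in the standard culture. ARSB and MMP14 were named after their values were seen. MMP3, stromelysin, ran from 100 to 15064 in the line labelled female 3, with a slope of 1.41 log2 per 10 years and a standard error of 0.46, and SGSH had a slope of 0.57 with a standard error of 0.20 (adjusted p = 0.85 for both, limma). Without that line, the oldest donor and the highest line for both genes, the slopes were 1.07 with a standard error of 0.51 for MMP3 and 0.32 with a standard error of 0.17 for SGSH (adjusted p = 0.993 for both, limma). MMP1, a collagenase, ran from 100 to 720.

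Among 23 partners and receptors 11 were higher and 12 lower at 50% confluence (13 and 10 under median scaling), with relative medians of -0.04, -0.30 and -0.30. On the probe set of highest mean per gene, 4 passed 2-fold and all 4 were higher. Other probe sets of the list were lower by 2-fold or more: those of FN1 gave -1.57 and -1.08, those of COL6A1, a chain of collagen VI, -1.67 and -1.07, and 1 of COL6A2 gave -1.66, all named after their values were seen. FBN1, the fibrillin that binds versican in microfibrils, had 7832 at 50% confluence, against 3455 in the standard culture, above all 11 standard lines. TNC, the tenascin that versican binds through its lectin domain, had 3591 at 50% confluence against 1382 in the standard culture. COL3A1, a fibril collagen, had 5409 at 50% confluence against 1906 in the standard culture, and FBLN1, a versican-binding fibulin, had 300 at 50% confluence against 160 in the standard culture with a log2 difference of -0.36 on its second probe set, both named after their values were seen. THBS1, a matricellular protein, had 3095 at 50% confluence against 5402 in the standard culture, a log2 difference of -0.88, with -1.06 and -2.22 on its other probe sets.

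**Figure D4:**
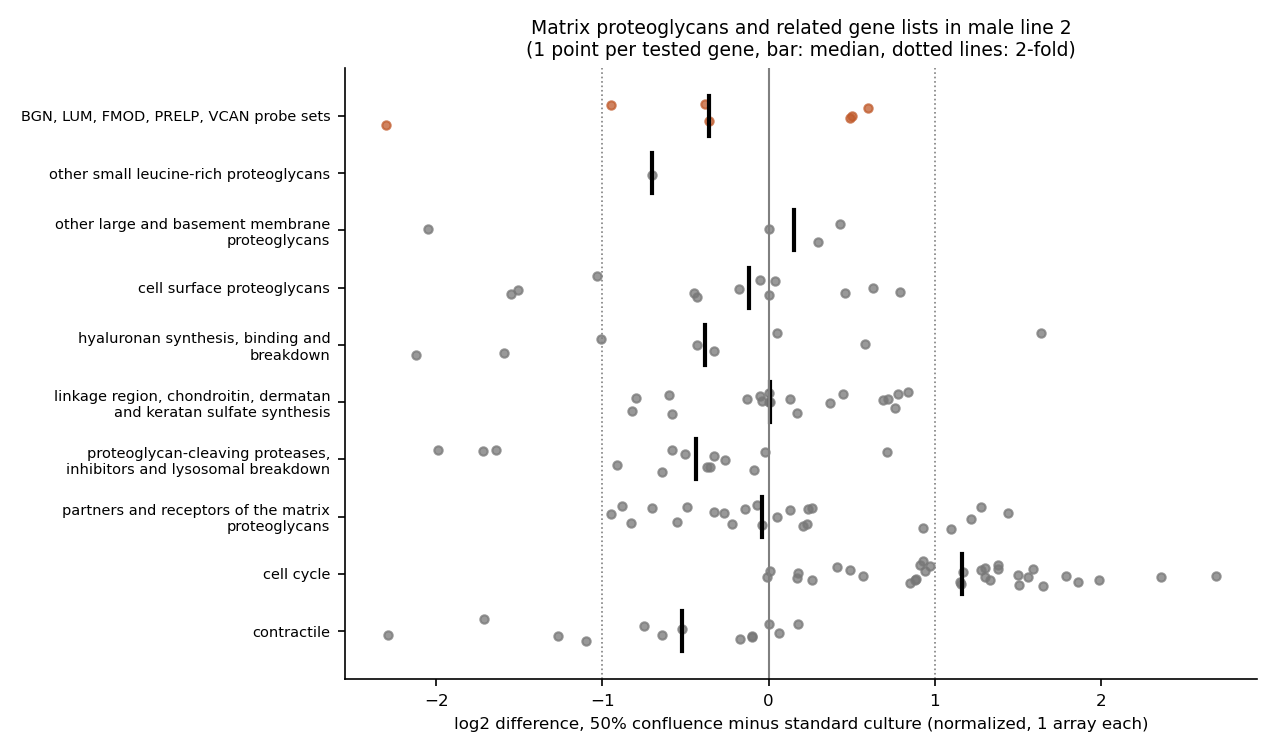
Log2 difference, 50% confluence minus standard culture of male 2 (quantile-normalized), of the tested genes of each proteoglycan list, with 1 point per gene and the median of each list. Proteases, inhibitors and lysosomal enzymes lie mostly below 0 (13 of 14), and the synthesis genes lie around 0 (10 higher and 8 lower).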

How the data were processed

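The deposited values are intensities, 1 whole number per probe set and array, as the authors deposited them. No source used here gives the summarising software, the scaling or the origin of the floor of 100. Groups, ages and confluence were taken from the labels. Intensities were taken to log2 and quantile normalized over 12 arrays. The 67 control probe sets were left out, and probe sets with a mean at or below the 40th percentile were not tested, which left 7535. The 7 member probe sets all passed. Of 12625 probe sets, 10961 had 1 symbol, 545 several and 1119 none.

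Sex and age were fitted with limma 3.58.1 in R 4.3.3 (lmFit, eBayes) over the 11 standard arrays, with Benjamini-Hochberg adjustment over all tested probe sets. Correlations had permutation p-values from 100000 resamples (scipy 1.17.1), two-sided. The plan named pairs with DCN, which could not be formed, so 10 pairs were tested. On simulated data with 200 changed probe sets of 7535, the sex fit recovered 50% at a log2 change of 1 and 95.5% at 2. Recovery was not tested separately for probe sets that spread as widely as BGN, FMOD and VCAN 38111_at. Their SDs were 1.04, 0.95 and 0.80, against a median of 0.40 over all tested genes. Precision is limited by the number of arrays. The standard arrays correlated at r from 0.884 to 0.94, and 0 were identical.

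The members, the lists and the rules were chosen with earlier results of these data known. Named genes were the members and the closest genes of each member, where the plan named 3 and not all of them are given above. From the lists came up to 4 genes past 2-fold and outside the range of standard lines, and the 2 of largest SD. The 2 of smallest p for sex and for age over the lists were also named. Alternatives were other scalings, filters and floors, array weights, other covariates, rank correlations, and leaving out each line.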

Additional observations from a re-analysis of the deposited data

Results flagged for a closer look

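Prolargin in female 5 stood apart from the other females. Its log2 value on PRELP 37022_at was 9.91 and its intensity 972, while the other 5 females lay between 2012 and 2884. The gap to the nearest of them was 0.69 of the whole range of the group. Of 14 groups of lines examined (the 7 probe sets in males and in females), 1 held such a line, and chance gives one in about 5% of groups. Male 1 had 894, the lowest of the males, and did not stand apart from them by this measure.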

How the results depend on the processing

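Each standard line came from another animal, so sex and age had no paired analysis. No member passed for sex or age under any alternative run; over all tested probe sets, sex gave 2 calls with median scaling, 2 with the array at 50% confluence in place of the standard array, 1 without the line labelled female 3 and 0 otherwise, and age gave 0 throughout. FMOD was not tested with the filter at the 60th percentile. With median scaling 3 probe sets differed by 2-fold or more between the cultures, not 1. With Spearman's rho 1 pair of members passed. Leaving out each line gave 0 to 1 passing pairs of VCAN probe sets. The sex difference of PRELP was -0.02 with median scaling, -0.01 as deposited, -0.17 with the array at 50% confluence and -0.01 with age as a covariate. In adults only, the age slopes were 0.37 for LUM, 0.20 for PRELP and 0.12 for VCAN 38111_at, and further 0.03 for FMOD, -0.40 for VCAN 31682_s_at and -0.61 for BGN. Leaving out each line, sex differences ran from -0.14 to 0.49 for BGN, -0.31 to 0.16 for LUM, -0.20 to 0.32 for PRELP, -0.47 to 0.16 for VCAN 38111_at and -0.01 to 0.21 for VCAN 38112_g_at. Age slopes ran from -0.24 to 0.06 for LUM, -0.02 to 0.51 for FMOD, -0.20 to 0.05 for PRELP and -0.38 to 0.05 for VCAN 38111_at. The cause of these changes was not tested. Between the cultures, the BGN difference was -0.35 as deposited (0.50 after quantile normalization), and VCAN 38111_at and 38112_g_at passed 2-fold with median scaling, at 1.07 and 1.17. Values at 100 are upper limits, which bears most on FMOD.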
